A study of Caenorhabditis elegans with 6 samples.

Results

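The col genes encode most of the collagens of the nematode cuticle, the outer coat of the worm. In this table of 45519 genes, 156 carry a name made of col and a number, all of type protein_coding, and these are the members described here. RNA sequencing measured them in whole Caenorhabditis elegans larvae that hatched in M9 buffer without food and were kept there for 3 days at 20 °C, so that they stopped at the first larval stage. There were 3 libraries of linc-133(aqz 3), a strain with the allele aqz 3 of a long intervening noncoding RNA gene, and 3 libraries of N2, the wild-type strain. All 6 libraries share the stage, the starvation and the whole-body source. The labels do not say what aqz 3 changes in the gene or how the replicates were raised. Any p-value therefore weighs the strains against variation among these libraries, part of which may be technical.

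The epidermis lies under the cuticle and secretes its collagens. Each chain holds long runs with glycine at a regular spacing. Prolines in these runs are hydroxylated, chains wind into triple helices, and the ends are cut off before the helices are cross-linked outside the cell. A new cuticle is made before each moult, different collagens are used at different stages, and the cuticle of the first larval stage is laid down in the late embryo. Some collagens form the furrows or struts of the cuticle, and many col genes are known only by sequence.

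Levels are given in FPKM, the deposited unit, in which fragment numbers are scaled to gene length and to sequencing depth. The reads behind them were recovered and came to between 16108063 and 18556695 per library. linc-133 itself had 6, 2 and 2 reads in linc-133(aqz 3) replicates 1, 2 and 3, against 9, 6 and 5 reads in N2 replicates 1, 2 and 3, which is too few to check the genotype. Markers of epidermis, body wall muscle, pharyngeal muscle, intestine and neurons were all above 1 FPKM, and all 5 vitellogenins, yolk genes of the adult, were below it. A list of 5 chaperone genes of the cell stress response held hsp-1, hsp-70, hsp-16.2, sti-1 and hsp-17. They summed to 3064, 3677 and 8150 FPKM in linc-133(aqz 3) replicates 1, 2 and 3, against 952 to 1353 FPKM in N2. Every linc-133(aqz 3) library was thus above every N2 library, and linc-133(aqz 3) replicate 3 stood apart as the highest.

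Averaged over the 6 libraries, 1 FPKM or more was reached by 93 of the 156 col genes, or 59.6%, against 69.4% of all 19986 protein-coding genes. Means of at least 1000 FPKM were found for 4 members, 100 to 1000 FPKM for 9, 10 to 100 FPKM for 32 and 1 to 10 FPKM for 48. The median of the 93 was 9.39 FPKM, close to the 10.01 FPKM of all 16794 genes at that level.

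**Figure D1:**
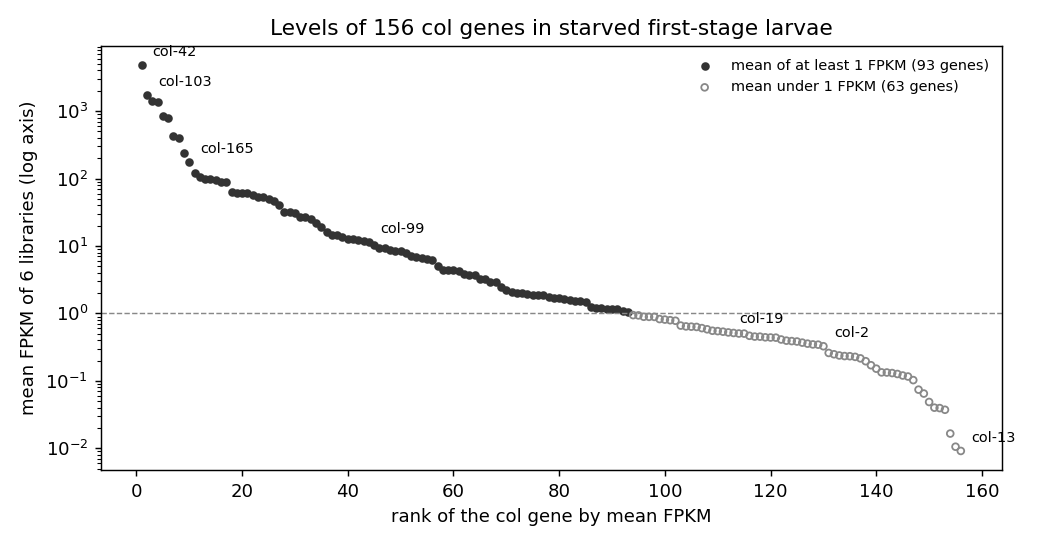
Mean FPKM over 6 libraries (log axis) of the 156 col genes against their rank, with filled points for the 93 genes at 1 FPKM or more and open points for the 63 below it. The curve is steep over its first 10 genes and then declines slowly, crossing 1 FPKM with no gap.

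A few members held most of the collagen message. The 3 highest, col-42, col-103 and col-98, made up 56.8% of the summed mean FPKM of all col genes, the 8 highest 84.3%, and the 63 members under 1 FPKM together 0.176%. col-42 (gene 180218, chromosome V, 18638484 to 18639591, plus strand of WBcel235, 2 exons) was the gene of 4th highest mean in the whole table. It measured 2790, 5543 and 7675 FPKM in linc-133(aqz 3) replicates 1, 2 and 3, against 5665, 3981 and 3087 FPKM in N2 replicates 1, 2 and 3. The strains overlapped, and the lowest linc-133(aqz 3) library lay below all N2 libraries. In each library col-42 alone held 31.8% to 37.6% of the summed col FPKM.

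col-103 (chromosome IV, 762413 to 763680, minus strand) followed with 857, 2238 and 3260 FPKM in linc-133(aqz 3) replicates 1, 2 and 3, and 2155, 1132 and 808 FPKM in N2 replicates 1, 2 and 3. Its exons overlap those of gst-40 on the other strand, and no source used here states that reads were assigned by strand, so its level is uncertain there. col-98 (chromosome III, 13018935 to 13020226, plus strand) measured 649, 1886 and 2146 FPKM in linc-133(aqz 3) and 2012, 1033 and 828 FPKM in N2, in the order of the replicates. In both genes, as in col-42, replicate 1 was the lowest linc-133(aqz 3) library and the highest N2 library, so the spread within each strain was larger than the gap between the strain means.

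col-107 (chromosome IV, 1548721 to 1549714) was steadier, at 1009, 1327 and 1722 FPKM in linc-133(aqz 3) and 1833, 1446 and 944 FPKM in N2. col-39 (chromosome II, 10704902 to 10706019) averaged 707 ± 206 FPKM in linc-133(aqz 3) and 971 ± 107 FPKM in N2 (SD, n = 3 each). Next came col-147 with 819 ± 374 FPKM in linc-133(aqz 3) and 773 ± 452 FPKM in N2. col-80 averaged 417 ± 217 FPKM in linc-133(aqz 3) and 441 ± 193 FPKM in N2, and col-166 averaged 508 ± 251 and 303 ± 184 FPKM in the same order. col-118, with 212 ± 36.6 FPKM in linc-133(aqz 3) and 269.6 ± 74.8 FPKM in N2, varied least around its level among the 9 highest in linc-133(aqz 3). Exons of col-147 overlap T06E4.5 on the other strand, and its deposited model spans col-146, so its own level is uncertain.

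**Figure D2:**
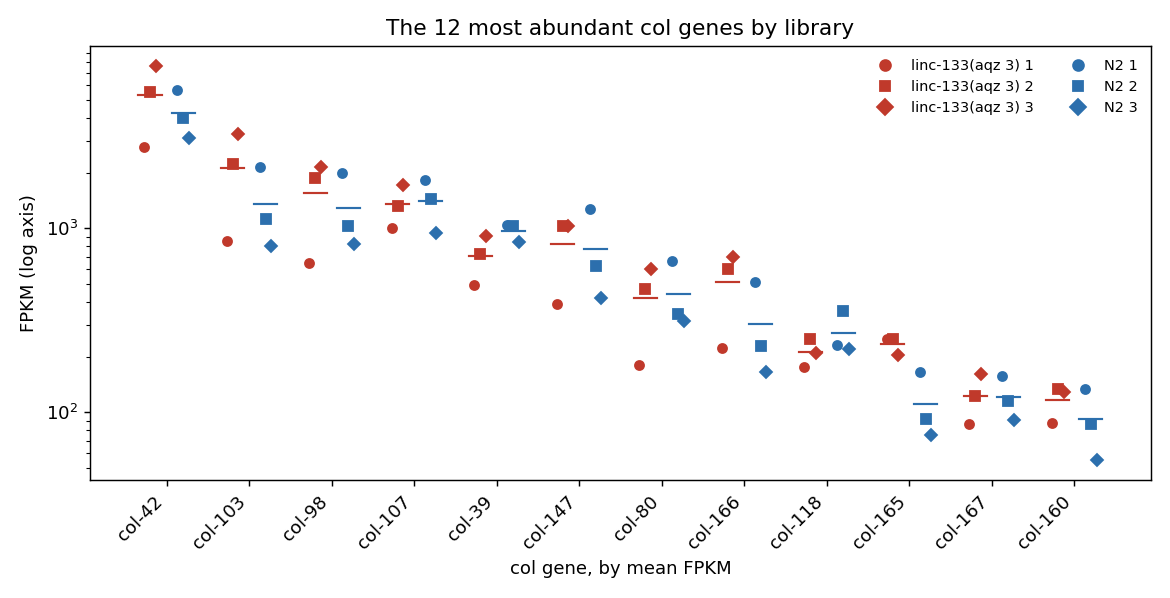
FPKM (log axis) of the 12 col genes of highest mean in each library, linc-133(aqz 3) in red on the left of each gene and N2 in blue on the right, with a symbol for each replicate number and a bar at the strain mean. The strains overlap in 11 of these genes, and in col-165 every linc-133(aqz 3) point lies above every N2 point.

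Among the lowest members some are known for other stages. col-19, a collagen gene of the adult cuticle, measured 0.426 ± 0.0961 FPKM in linc-133(aqz 3) and 0.620 ± 0.188 FPKM in N2 (SD, n = 3 each), from 53 reads in all. col-2, a gene of the dauer larva, measured 0.497 ± 0.226 FPKM in linc-133(aqz 3) and 0.156 ± 0.0910 FPKM in N2, from 34 reads, and its exons overlap W01B6.15 on the other strand. Both were below the level needed for testing. By contrast col-99, which encodes a collagen anchored in the cell membrane and not part of the cuticle, measured 11.6 ± 3.72 FPKM in linc-133(aqz 3) and 11.3 ± 0.492 FPKM in N2. It stands out among the members by its 18 exons, where 75 of the 156 have 2, and its exons overlap those of daf-1 on the other strand.

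The level of 1 FPKM is no natural border. Just above it were col-87, col-187 and col-156, with means of 1.16, 1.09 and 1.07 FPKM and 229, 115 and 116 reads over the 6 libraries. Just under it came col-110, col-149 and col-122, with 0.944, 0.936 and 0.893 FPKM and 105, 105 and 135 reads. Every one of the 156 members had at least 1 read in some library, and 139 had a read in each of the 6.

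The expressed and the weakly expressed members were alike in some annotated traits and not in others. Coding length had a median of 912 bases in both sets, and both had a median of 2 exons. The cuticle collagen N-terminal domain was named in the deposited descriptions of 78 of the 93 expressed and 50 of the 63 weakly expressed members. The share expressed was 11 of 21 on chromosome I, 13 of 24 on II, 8 of 12 on III, 25 of 41 on IV, 19 of 31 on V and 17 of 27 on X. Another col gene lay within 10 kb of 29 of the 93 expressed members and of 21 of the 63 others. Exons overlapped those of another gene in 23 of the 93 expressed and 29 of the 63 weakly expressed members.

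Neighbouring col genes could differ by orders of magnitude or run level. On chromosome II, col-79, col-39 and col-80 stand side by side on the plus strand, with means of 1.22, 839 and 429 FPKM. Along the plus strand of chromosome X, each next gene had a lower mean. col-166 (6280016 to 6280921) had a mean of 406 FPKM, col-167 (6323488 to 6324393) 122 FPKM, col-168 27.2 FPKM, col-169 16.02 FPKM, col-170 9.39 FPKM and col-171 (6334298 to 6335221) 0.0106 FPKM, from 1 read. The order held for the means, while col-170 lay above col-169 in linc-133(aqz 3) replicate 3 and in N2 replicate 1. How reads that match similar copies were assigned is not stated for this run either, so its separate levels are uncertain, and it was picked after its values were seen.

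**Figure D3:**
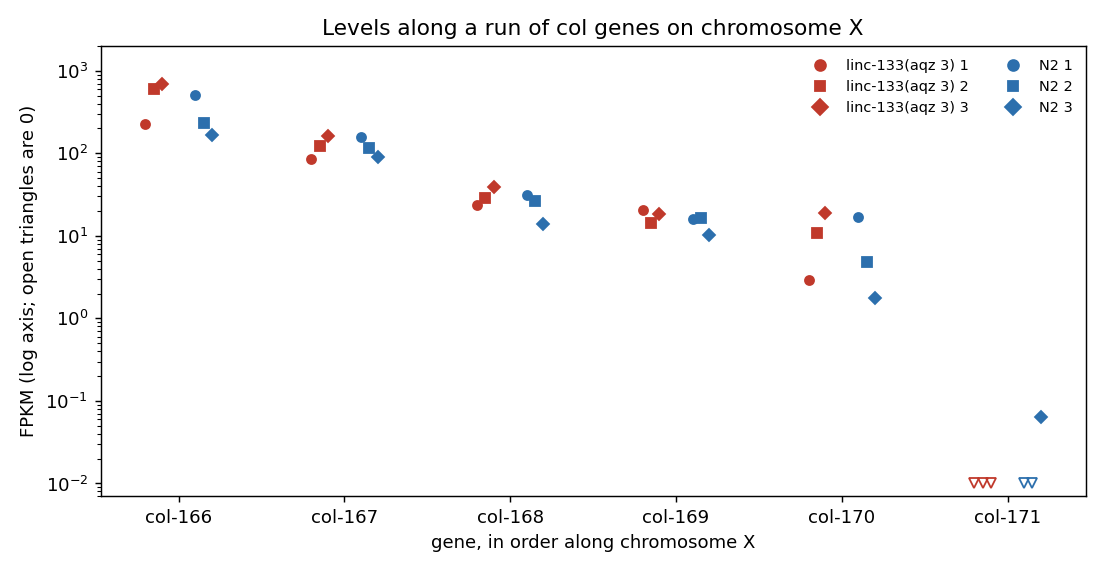
FPKM (log axis) in each library of 6 col genes in their order along chromosome X, linc-133(aqz 3) in red and N2 in blue. The means decline from col-166, at 406 FPKM, to col-171, where 5 of the 6 libraries are at 0, and in linc-133(aqz 3) replicate 3 and N2 replicate 1 col-170 lies above col-169.

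The pair col-117 and col-3 on chromosome IV points in opposite directions from starts 609 bases apart (8824195 on the minus strand and 8824804 on the plus strand). col-3 measured 54.2, 105.5 and 112 FPKM in linc-133(aqz 3) and 156, 84.1 and 70.5 FPKM in N2. col-117 measured 56.9, 102.8 and 99.9 FPKM in linc-133(aqz 3) and 154, 91.9 and 69.3 FPKM in N2. The ratio of col-3 to col-117 stayed between 0.915 and 1.12 in the 6 libraries while each gene ranged more than 2-fold between libraries. Both have a coding length of 897 bases, and how the authors assigned reads that match similar copies is not given in the sources used here, so the separate levels are uncertain. Models of col-12 and col-13 in the table overlap over nearly their whole span, as do those of col-159 and col-160. col-12 averaged 14.01 ± 1.32 FPKM in linc-133(aqz 3) and 11.7 ± 3.99 FPKM in N2, and col-13 had 1 read in all, so this pair is better read as a sum.

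The col genes were then compared between the strains, to see whether collagen expression in arrested larvae differs with the linc-133 allele. 0 of the 93 col genes passed limma's test on log2(FPKM + 1) at an adjusted p of 0.05, with a lowest adjusted p of 0.204, and the same test called 0% of all 16794 genes. An unadjusted limma p under 0.05 was found for 6 col genes, 4 higher and 2 lower in linc-133(aqz 3), or 6.45% of the members against 13.7% of all tested genes. In voom on the recovered reads, 0 col genes passed the adjusted threshold, where 0.167% of all tested genes passed, and 9 had an unadjusted p under 0.05, as did 13% of all tested genes (2186 of 16794). Every linc-133(aqz 3) library lay above every N2 library in 6 members and below in 5, or 11.8% in all, against 10.5% above, 9.54% below and 20.0% in all among the tested genes. Both shares were below those of the whole table. The median log2 change was 0.08 over the col genes and 0.00 over all tested genes, with 53 members above 0 and 40 below.

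**Figure D4:**
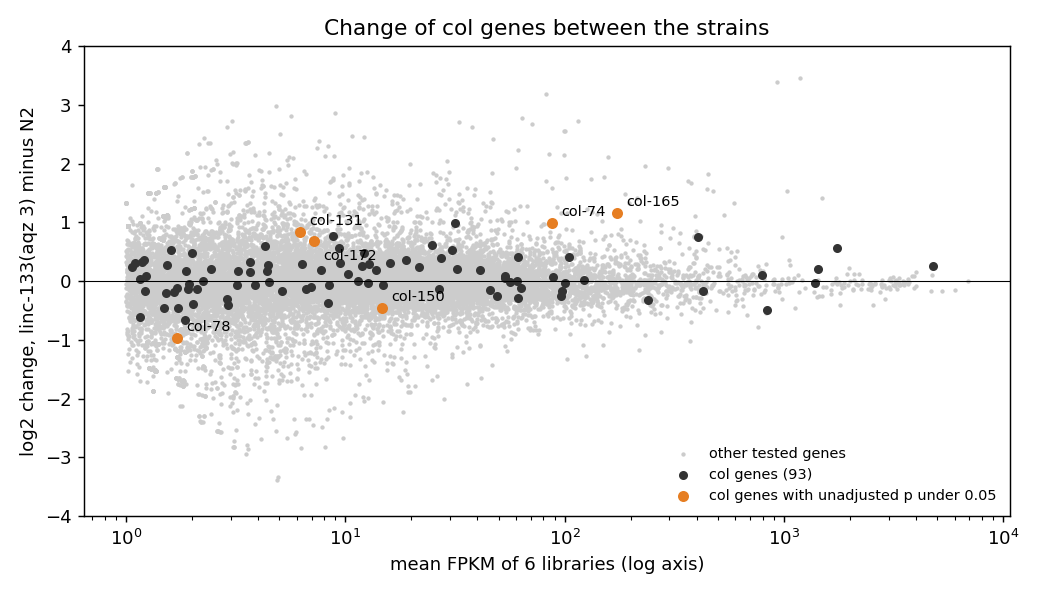
Log2 change between the strains, linc-133(aqz 3) minus N2, against mean FPKM (log axis) for the 93 tested col genes in black and the other tested genes in grey, with the 6 col genes of unadjusted p under 0.05 in orange. The col genes scatter on both sides of 0 with a median of 0.08.

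The lowest p among them belonged to col-165 (gene 180710, chromosome X, 4353618 to 4354852, plus strand, 4 exons). It measured 251, 250.0 and 206 FPKM in linc-133(aqz 3) replicates 1, 2 and 3, against 165.8, 92.4 and 75.7 FPKM in N2 replicates 1, 2 and 3. All linc-133(aqz 3) libraries were above all N2 libraries. The log2 change was 1.15 with a standard error of 0.29 (limma adjusted p = 0.204), which misses the threshold. Of the 12 most abundant members, 1, col-165, had an unadjusted p under 0.05.

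col-74 (chromosome II, 5830374 to 5832022, plus strand) was similar, with 121, 116.6 and 107 FPKM in linc-133(aqz 3) and 88.3, 47.5 and 45.6 FPKM in N2. Its log2 change was 0.98 with a standard error of 0.26 (limma adjusted p = 0.217), and its libraries did not overlap between the strains. Exons of col-74 overlap gtap-1 on the other strand. At a lower level, col-131 (chromosome IV, 13065729 to 13067300) measured 7.86, 10.7 and 6.04 FPKM in linc-133(aqz 3) and 5.64, 4.16 and 2.76 FPKM in N2 (limma adjusted p = 0.279). col-172 averaged 9.06 ± 2.04 FPKM in linc-133(aqz 3) and 5.32 ± 1.73 FPKM in N2 (SD, n = 3 each), with overlapping libraries. In all 4 genes N2 replicate 1 was the N2 library closest to linc-133(aqz 3).

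On the lower side, col-150 (chromosome V, 10293563 to 10294649, minus strand) measured 13.5, 11.7 and 11.3 FPKM in linc-133(aqz 3) and 19.5, 15.9 and 16.1 FPKM in N2. Its log2 change was -0.46 with a standard error of 0.14 (limma adjusted p = 0.26). col-78 (chromosome II, 9152531 to 9154336) measured 1.25, 0.428 and 0.76 FPKM in linc-133(aqz 3) and 1.501, 2.75 and 3.53 FPKM in N2 (limma adjusted p = 0.298). Neither overlapped between the strains. The other members of lowest p were col-154, col-56, col-75, col-177, col-50 and col-65 on the higher side and col-39, col-184, col-8, col-153, col-173, col-35, col-118 and col-129 on the lower side, with unadjusted p-values in limma of 0.0583 to 0.229.

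A single setting changed these calls. In voom with a quality weight for each library, col-165, col-74 and col-131 passed as higher in linc-133(aqz 3) (adjusted p = 0.0371, 0.037 and 0.0499), which is 3 of 93 members where 2.70% of all tested genes passed, 2.19% higher and 0.518% lower. Over the other alternatives run, the adjusted p of each stayed above 0.05, and it reached 0.548, 0.575 and 0.632.

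The spread between libraries was wider for abundant col genes than for most genes of that level. Of the 34 col genes averaging 20 FPKM or more, 21 differed at least 2-fold between the highest and lowest of all 6 libraries, or 61.8%, against 21.7% of the 5544 genes at that level. Within linc-133(aqz 3) alone 11 of the 34 differed by that much, against 12.6% of all genes of that level, and within N2 alone 14, against 4.24%. Within linc-133(aqz 3) the highest library was a median of 1.69 times the lowest, against 1.41 times over all genes of that level. Within N2 it was 1.82 times, against 1.19 times. The median standard error of the log2 change was 0.28 for these members and 0.17 for all genes of that level. No test of this difference was made.

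The libraries that were high or low recurred from gene to gene. N2 replicate 1 was the highest N2 library in 24 of the 34 members, and N2 replicate 3 was the lowest in 29. Over all genes of that level these shares were 38.2% and 34.3%. linc-133(aqz 3) replicate 1 was the lowest of its strain in 20 of the 34 and replicate 3 the highest in 17, against 38.9% and 35.2% over all genes of that level. The members were split within this strain, since replicate 1 was its highest library in 13 and replicate 3 its lowest in 8. Over all genes of that level these shares were 28.6% and 40.2%. The summed FPKM of all col genes was 8782, 16135 and 20415 in linc-133(aqz 3) replicates 1, 2 and 3, against 17662, 11945 and 9082 in N2 replicates 1, 2 and 3. In reads, col genes took 1.05%, 1.72% and 1.95% of the linc-133(aqz 3) libraries and 1.92%, 1.25% and 0.978% of the N2 libraries. The ratio of the mean sums was 1.17, with overlapping strains, and 1.02 without the 3 most abundant members. In whole worms, fewer cells making a transcript and less of it per cell cannot be told apart.

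**Figure D5:**
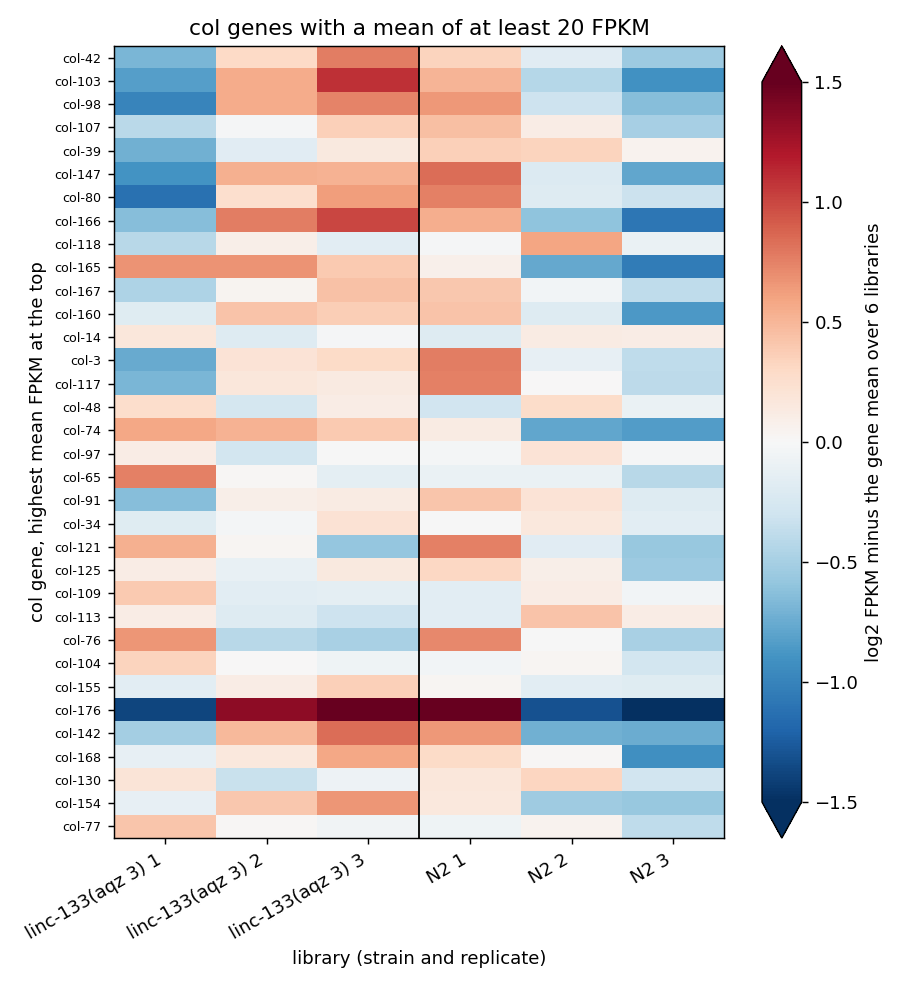
Log2 FPKM minus the gene's mean over 6 libraries, for the 34 col genes averaging 20 FPKM or more (rows, most abundant at the top) in the linc-133(aqz 3) libraries on the left of the line and the N2 libraries on its right. Red is above the gene's mean and blue below, and the colour ends at 1.5 in either direction, which col-176 passes.

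The widest spread among them was in col-176 (chromosome X, 10077597 to 10078728, plus strand), named after its values were seen. It measured 7.49, 49.3 and 59.97 FPKM in linc-133(aqz 3) replicates 1, 2 and 3, against 59.8, 7.87 and 5.25 FPKM in N2 replicates 1, 2 and 3. That is 8.003-fold between the highest and lowest linc-133(aqz 3) library and 11.4-fold between those of N2. Not every member followed this order. col-121 measured 76.7, 54.1 and 35.3 FPKM in linc-133(aqz 3) and 89.4, 47.1 and 35.8 FPKM in N2, and col-76 measured 68.03, 32.1 and 30.6 FPKM in linc-133(aqz 3) and 70.95, 42.8 and 30.6 FPKM in N2, so that replicate 1 was the highest library of both strains. Exons of col-121 overlap daf-15 on the other strand. col-14 was nearly level, at 112, 87.3 and 98.1 FPKM in linc-133(aqz 3) and 87.2, 108 and 107 FPKM in N2.

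Most tested collagens named for body shape were, like col-121 and col-76, highest in replicate 1 of both strains. This list of 20 dpy, sqt, rol, bli and lon genes was chosen with earlier results known. In this list 9 genes averaged under 1 FPKM and were not tested. Of its 11 tested members, 10 were highest in replicate 1 within linc-133(aqz 3), and 10 in replicate 1 within N2. Over all tested genes these shares were 32.5% and 38.2%. The exceptions were lon-3 within linc-133(aqz 3) and dpy-5 within N2. Of the 11, dpy-9, dpy-13 and sqt-2 were near the filter, with means of 1.19, 1.05 and 1.08 FPKM. The furrow collagen gene dpy-7 measured 90.7, 56.8 and 39.6 FPKM in linc-133(aqz 3) and 91.4, 42.8 and 31.6 FPKM in N2. The most abundant, dpy-14, measured 768, 664 and 577 FPKM in linc-133(aqz 3) and 757, 418 and 401 FPKM in N2. Their median log2 change was 0.24, against 0.00 over all tested genes. 0 of the 11 passed limma over all genes. An unadjusted p under 0.05 was found for 13.7% of all tested genes and for 1 of the 11, dpy-5. It averaged 3.77 ± 1.03 FPKM in linc-133(aqz 3) and 10.2 ± 2.46 FPKM in N2 (SD, n = 3 each). Of the 4 tested moult genes, noah-1, noah-2 and fbn-1, which encode extracellular matrix proteins, were likewise highest in replicate 1 of both strains. The astacin protease gene nas-36 was not, at 4.72, 3.15 and 10.8 FPKM in linc-133(aqz 3) and 3.54, 4.33 and 3.60 FPKM in N2.

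Most listed genes for the processing of collagen chains averaged 1 FPKM or more over the 6 libraries. The exceptions were phy-3, skpo-1 and bli-5, with means of 0.295, 0.486 and 0.846 FPKM. Of 11 genes for modification and secretion, 10 were tested, and 1 had an unadjusted p under 0.05. This was phy-2, a catalytic subunit of the prolyl hydroxylase, with 32.5, 38.02 and 39.7 FPKM in linc-133(aqz 3) and 31.6, 17.7 and 17.7 FPKM in N2. Of 8 genes for cleavage and cross-linking 6 were tested, and the astacin protease gene dpy-31, which cuts procollagen ends, had such a p together with tsp-15. Of all tested genes, 13.7% had such a p in either direction and 7.22% had it on the higher side, and these lists are short. dpy-31 averaged 41.1 ± 2.66 FPKM in linc-133(aqz 3) and 31.6 ± 1.03 FPKM in N2. None of these passed after adjustment in limma over all genes (adjusted p = 0.253 to 0.269).

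Regulators of the epidermis and of the moult gave 5 unadjusted p-values under 0.05 among 14 tested genes, 4 of them higher in linc-133(aqz 3), where 7.22% of all tested genes were higher and 6.48% lower at that p. The GATA factor gene elt-3 averaged 45.6 ± 4.93 FPKM in linc-133(aqz 3) and 33.6 ± 2.69 FPKM in N2. For elt-1, another GATA factor gene of the epidermis, the values were 14.4 ± 2.21 and 10.4 ± 1.05 FPKM in the same order. grh-1 and bed-3, also transcription factor genes, were higher too, and hbl-1, a gene of developmental timing, was lower, all at unadjusted p under 0.05. The median log2 change of the list was 0.11. In the DBL-1 pathway, a TGF-beta signal that sets body size, 2 of 10 genes were higher and 3 lower at that p. The ligand gene dbl-1 averaged 29.4 ± 5.98 FPKM in linc-133(aqz 3) and 18.6 ± 2.42 FPKM in N2, and lon-1, which the pathway represses, 7.13 ± 1.64 and 18.3 ± 6.20 FPKM. Among its SMAD genes sma-4 was on the higher side and sma-2 and sma-3 on the lower side at that p, and the median of the list was 0.02. No gene of these lists passed after adjustment over all genes in limma.

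The 8 epidermis markers summed to 163 to 320 FPKM in linc-133(aqz 3) and 241 to 258 FPKM in N2, with none under 1 FPKM, and mua-3 was lower in linc-133(aqz 3) at an unadjusted p under 0.05. The 3 body wall muscle markers summed to 1234, 1448 and 3381 FPKM in linc-133(aqz 3) replicates 1, 2 and 3, against 1723, 2006 and 1763 FPKM in N2. The 3 intestine markers summed to 149.6, 251 and 256 FPKM in linc-133(aqz 3) and 199, 231 and 272 FPKM in N2. The 3 neuron markers summed to 578 to 732 FPKM in linc-133(aqz 3) and 691 to 758 FPKM in N2, and the 2 pharyngeal muscle markers to 249 to 660 and 258 to 390 FPKM in the same order. The chaperone sum had the same order as the summed col FPKM within each strain, at 3064, 3677 and 8150 FPKM in linc-133(aqz 3) and 1353, 1084 and 952 FPKM in N2. So did the sum of the epidermal and moulting regulators. It was 427, 517 and 608 FPKM in linc-133(aqz 3), and 517, 510 and 504 FPKM, nearly level, in N2. Single chaperone genes mostly did not. Within linc-133(aqz 3), hsp-70 and hsp-16.2 had this order, while hsp-1, sti-1 and hsp-17 did not. Within N2, no single chaperone gene of the list had it. The sums of the body wall muscle and of the intestine markers had the col order within linc-133(aqz 3) and not within N2. The same held for the sums of the DBL-1 list and of the collagens outside the cuticle. Within N2 and not within linc-133(aqz 3), the col order was found in 3 sums. These were the collagens named for body shape, the genes for modification and secretion, and the moult genes. Among the intestine markers vha-6 had that order within linc-133(aqz 3), and ges-1 and elt-2 did not. Of the 4 collagens outside the cuticle, the basement membrane genes emb-9 and let-2 were also highest in linc-133(aqz 3) replicate 3, at 437 and 434 FPKM. 0 of the 4 had an unadjusted p under 0.05 in limma. The part of tissue makeup or of stress in the spread of the col genes was not tested.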

How the data were processed

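The authors deposited 1 table of FPKM per gene for the 6 libraries, with gene length (another deposited column, in bases), position and type. Per the submitters' processing notes, Bowtie 0.12.2, STAR 2.5.2b, StringTie and the build WBcel235 were used, with no roles given; the sources used here name no annotation release or strand setting. Per the labels' protocols, libraries were made from 1 µg of total RNA with a TruSeq kit. FPKM times gene length, divided by 1 factor per library found from the values, gave whole reads within 0.01 for 100% of 131954 values above 0. All 156 col symbols were found in the Ensembl annotation of WBcel235, and 101 had identical ends.

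Testing covered all genes averaging 1 FPKM or more. The tool was limma 3.58.1 (R 4.3.3), run on values transformed as log2(FPKM + 1) with trend and robust moderation, group only, and Benjamini-Hochberg adjustment over all of them. A log2 change on this scale understates that of low genes. The script was tested on simulated data. Members and lists were chosen with earlier results of these data known. Named were the 12 most abundant members, the 10 higher and 10 lower of lowest p, 3 on each side of 1 FPKM, col-2, col-19, col-99, and in each list members with an unadjusted p under 0.05 or the highest level, where a result turns on it. Given beyond this rule, col-3, col-117, col-12, col-13, col-14, col-121, col-76 and the X run were chosen after their values were seen. Protein identity and promoter motifs had been planned and are not analysed here.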

Additional observations from a re-analysis of the deposited data

How the results depend on the processing

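The count of 0 col genes past the threshold was the same at either pseudocount, under each filter, with quantile or median-of-ratios scaling, without trend and robust moderation, in voom, at a threshold of 0.1, and when each library was left out (0 to 0), and it was 3 in voom with quality weights. The median log2 change was 0.03 to 0.12 under the pseudocounts, scalings, voom and the filters at 5 FPKM and at 10 reads, -0.01 with no filter, 0.18 with quality weights, 0.08 for the members of at least 20 FPKM (added after the data were seen), and 0.00 to 0.17 without 1 library. The number of members expressed was 115 at 0.5 FPKM, 57 at 5 FPKM, 74 with 1 FPKM required in every library, and 91 to 94 without 1 library. The ratio of summed FPKM was 0.966 to 1.44 without 1 library, so its direction rests on single libraries. For the 10 higher and 10 lower members of lowest p, each gene under each other setting gave 332 estimates. All kept the direction, and in 329 the adjusted p stayed above 0.05 as in the main run. The genes were picked by their p in these same libraries, so a kept direction is no further evidence of a change. The labels do not say whether replicate numbers in the titles pair the samples. Deviations of same-numbered libraries correlated at 0.0162, -0.0345 and 0.0288 over the tested genes. A value over all tested genes cannot settle this for a subset of them. With the replicate block 0 col genes passed, and the median change was 0.08. Members near 1 FPKM rest on 105 to 229 reads over 6 libraries, which limits what can be seen for them.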
